A study of Mus musculus with 2 samples.

Results

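In choroid tissue of wild-type mice, which came with cells of the retinal pigment epithelium (RPE), 1 group of fibroblasts was defined by the transcripts of Tfpi2, Tcf21 and Alpl and is described here across all measured genes. Cells were droplet barcodes with at least 1000 UMIs (unique molecular identifiers, each standing for 1 captured transcript), 500 genes or more and a mitochondrial share of no more than 20%. A cell counted as a fibroblast when Col1a1, Col1a2, Col3a1, Dcn and Lum together gave at least 10 UMIs and the vessel, immune, glial and mural genes Cdh5, Ptprc, Sox10, Higd1b and Myh11 together at most 2. The Tfpi2-Tcf21 fibroblasts were selected on having Tfpi2+Tcf21+Alpl as strictly the largest of 7 marker sums, at 3 UMIs or more. They numbered 1011 of 4177 fibroblast-gated cells in library 1 and 1756 of 6487 in library 2, which is 24.2% (exact 95% binomial interval 22.9% to 25.5%) and 27.1% (26.0% to 28.2%). Of all 8497 and 13401 cells they made up 11.9% and 13.1%.

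The 2 libraries form 1 group, wild-type animals of the outbred ICR strain aged 8 weeks, with no treatment in the labels, and each pools the choroids of 1 male and 1 female. The tissue was dissociated in collagenase for 2 h and then in trypsin for 30 min, so the RNA is that of cells after digestion. No genotype or treatment was compared, and every comparison is between groups of cells of the same libraries. The libraries held 91741168 and 149570817 UMIs, and free RNA in barcodes with at most 100 UMIs made up 4.90% and 4.11% of them. Members had a median of 5605 and 5800.5 UMIs per cell, against 7821 to 13802.5 in the other 6 marker-defined fibroblast subsets. The libraries shared 31 cell barcodes, and 0 of these belonged to the Tfpi2-Tcf21 cells.

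Fibroblasts of the choroid lie between its vessels and melanocytes, secrete the collagens and proteoglycans of the stroma, and supply growth factors and chemokines to neighbouring cells. TFPI2 is a secreted Kunitz-type inhibitor of serine proteases that is held in the matrix. TCF21 is a basic helix-loop-helix transcription factor of mesenchymal progenitors. ALPL, the tissue-nonspecific alkaline phosphatase, is a cell-surface enzyme that cleaves inorganic pyrophosphate, an inhibitor of mineral formation.

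In what follows a level is the summed UMIs of a group of cells as counts per 1e6 of all its UMIs (CPM), and library 1 is given before library 2. Because the reads are 3′ tags, a level is not scaled by gene length. The genes that chose the cells are described first, without a test. Tfpi2 (GRCm38 chromosome 6, 3962595 to 3988919) stood at 742 and 542 CPM in the members and at 5.6 to 103 CPM in the other subsets. Alpl (chromosome 4, 137741733 to 137796384) stood at 654 and 698 CPM, with 194 and 249 CPM in the cells chosen by Cxcl5, Csf3 and Il11 and at most 152 CPM elsewhere. Tcf21 (chromosome 10, 22817281 to 22820174) reached 204 and 91.7 CPM, against at most 19.2 CPM in any other subset. Library 1 thus held more Tcf21 than library 2, while Alpl was nearly level between them.

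The label names Tcf21, yet it was the least common of the 3 markers in the cells. Alpl gave a UMI in 90.9% and 94.6% of members, Tfpi2 in 59.2% and 53.0%, and Tcf21 in 27.4% and 19.2%. All 3 were seen together in 12.4% and 8.60% of members. With each cell thinned to 3000 UMIs, which left out 21 and 22 members, these shares were 78.7% and 83.1% for Alpl, 51.9% and 44.4% for Tfpi2, and 23.2% and 14.3% for Tcf21. RPE cells, at a median of 25413 and 18494 UMIs, gave a UMI of Tcf21 in 0% and 0.451% of cells, of Tfpi2 in 1.69% and 2.59% and of Alpl in 3.04% and 5.64%. Most members thus carried Alpl transcripts, a smaller part Tfpi2 and the smallest part Tcf21.

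The fibroblast genes of the label were present but low. Dcn, which encodes the proteoglycan decorin, stood at 3824 and 4120 CPM in the members, the lowest of the 7 subsets, where the others ranged from 8545 to 40017 CPM. Col1a2, a chain of type I collagen, stood at 628 and 1090 CPM, against 1296 to 12904 CPM in the others. In mural cells (pericytes and smooth muscle) Dcn stood at 875 and 1985 CPM and Col1a2 at 373 and 691 CPM, and in RPE cells Dcn stood at 118 and 128 CPM. Lum, the proteoglycan lumican, did not show this pattern, at 1592 and 1631 CPM in the members and 759 to 2215 CPM in the others.

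**Figure D1:**
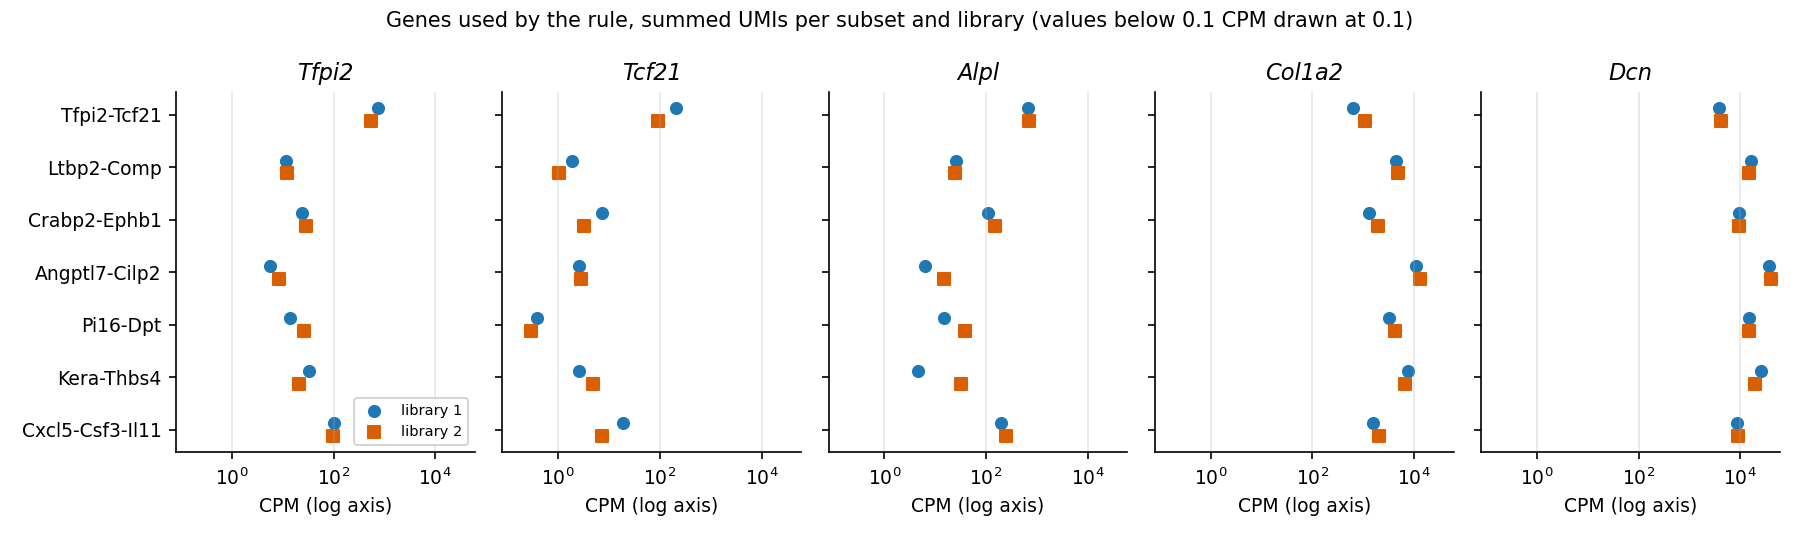
Levels of the 3 marker genes and of Col1a2 and Dcn (CPM, log axis) in the 7 fibroblast subsets, 1 point per library. The markers that chose the top row are highest there, and its Col1a2 and Dcn points, at 628 to 1090 and 3824 to 4120 CPM, lie left of all other subsets within the same library.

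The marker levels just outside and just inside the minimum of 3 UMIs are set by the rule itself. Fibroblast-gated cells with a marker sum of exactly 2 numbered 295 and 491, with Alpl at 216 and 192 CPM and Tfpi2 at 52.4 and 42.0 CPM. They include cells of other subsets. Members with exactly 3 numbered 119 and 250, with Alpl at 391 and 391 CPM and Tfpi2 at 93.3 and 89.1 CPM. Their depth differed as well, with medians of 6106 and 6698 UMIs per cell at a sum of 2 and 5375 and 5283 at 3. Across all fibroblast-gated cells binned by the marker sum, Lamc3 stood at 6.65 and 6.58 CPM at a sum of 0, at 35.0 and 53.4 CPM at 1 to 2, at 85.5 and 102.6 CPM at 3 to 5, and at 112 and 157 CPM above 10, with 78.3 and 122 CPM at 6 to 10. Fmod stood at 1858 and 2167 CPM at a sum of 0, at 544 and 698 CPM at 1 to 2, at 247 and 310 CPM at 3 to 5, and at 145 and 220 CPM above 10. The bins are a description of the cells that the rule ranks, and no test was made on them.

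**Figure D2:**
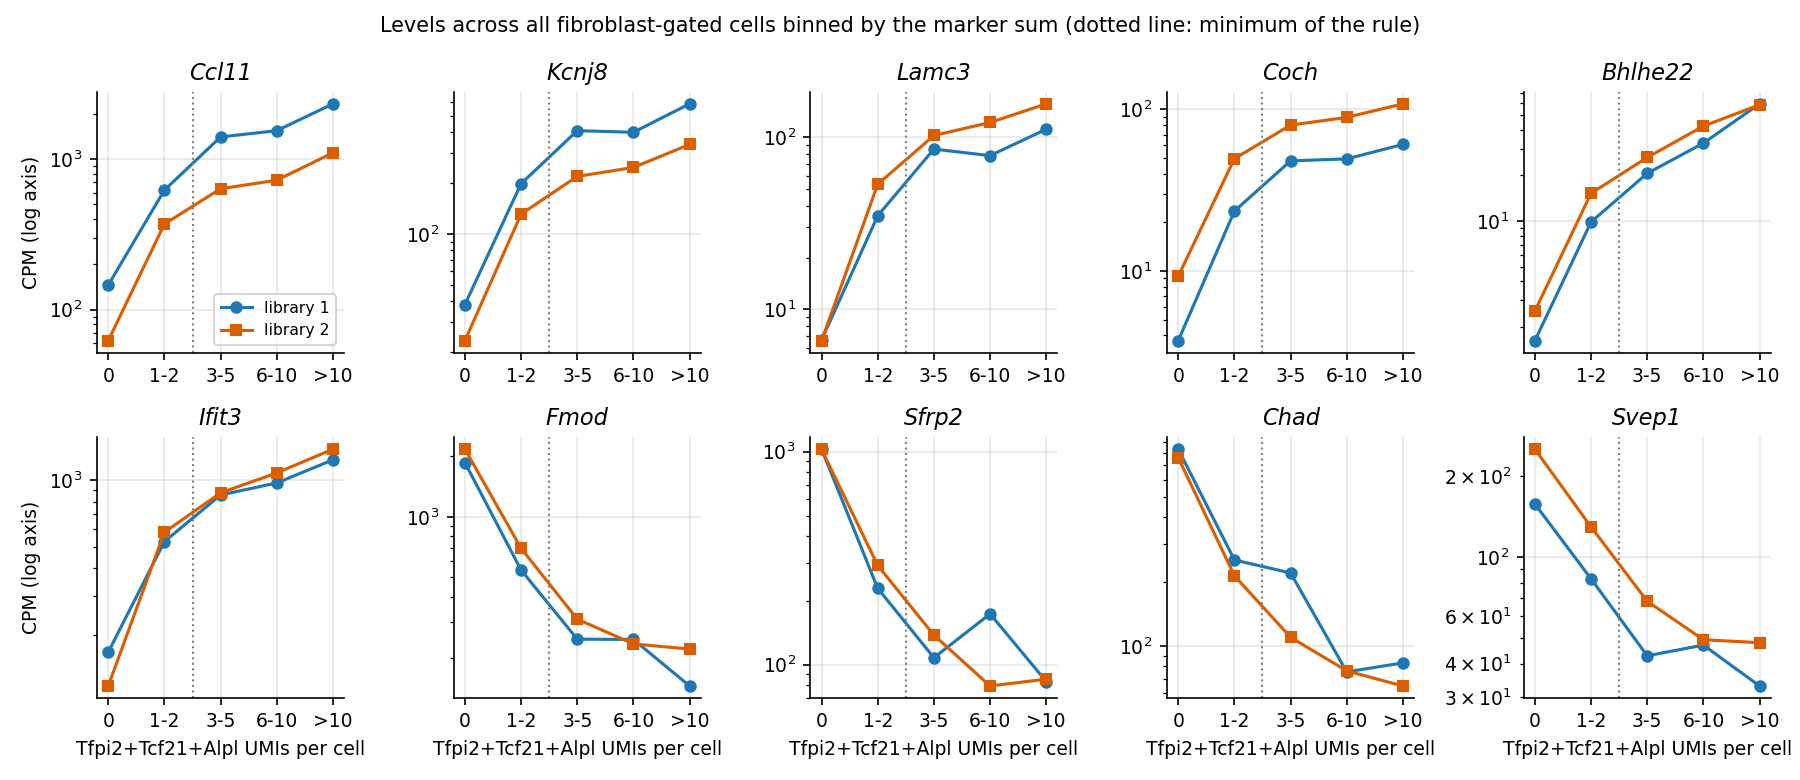
Levels of 10 genes (CPM, log axis) in all fibroblast-gated cells grouped by their Tfpi2+Tcf21+Alpl UMIs, 1 line per library. The first 6 genes are higher and the last 4 lower in the bins above the minimum of 3 UMIs, drawn as a dotted line.

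To compare the transcriptomes, counts were summed per library and subset and fitted for all genes with library as a block. The 7 subsets are named by the genes that chose them. Calls required an adjusted p (Benjamini-Hochberg, edgeR) under 0.05 together with a change of 2-fold or more, and the 30 genes of the rule were left out of every count. Because all subsets were cut from the same cells by marker genes picked with these data in view, the p-values describe only how far differences repeat over the 2 libraries. Across 12333 genes the members were most like the Cxcl5-Csf3-Il11 cells (Pearson r of log2 CPM 0.959 and 0.969 across genes) and the Crabp2-Ephb1 cells (0.947 and 0.955), and least like the Angptl7-Cilp2 cells (0.802 and 0.836). Genes are not independent replicates, and the same libraries underlie all of these values.

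Against the mean of the other 6 subsets, 1125 of 12305 genes were called higher in the Tfpi2-Tcf21 cells (9.14%) and 787 lower (6.4%). The median change over all genes was a log2 of -0.03. Each list count given below against this mean is to be set beside these shares of 9.14% and 6.4%. No list was tested as a set.

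Bhlhe22, a basic helix-loop-helix transcription factor, stood at 51.1 and 53.3 CPM in the members and at no more than 15.8 CPM in any other subset, a log2 fold change of 4.94 ± 0.23 (SE, n = 2 libraries; adjusted p = 5.1e-09). Ccl11, the eosinophil attractant eotaxin-1 (chromosome 11, 82057823 to 82062955), reached 2212 and 912 CPM. The libraries differed in Ccl11, and the groups overlapped across them, since the Cxcl5-Csf3-Il11 cells of library 1 had 938 CPM, although the members were highest within each library. The change of Ccl11 against the mean was 4.38 ± 0.46 (adjusted p = 0.000352). Mural cells had 1063 and 428 CPM of Ccl11, and the part of their RNA in the member values was not tested.

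Secreted and matrix genes were among the others. Lamc3, the laminin gamma 3 chain of basement membranes, stood at 116 and 156 CPM against at most 53.7 CPM elsewhere (4.10 ± 0.21). Coch, which encodes the secreted protein cochlin, stood at 70.3 and 122.8 CPM against at most 39.9 CPM elsewhere (3.79 ± 0.30). Alkal2, a ligand of the receptor tyrosine kinase ALK, stood at 315 and 294 CPM, with 142 CPM as the highest value of another subset (3.91 ± 0.27). In none of these did the members overlap with another subset in either library.

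Kcnj8 (chromosome 6, 142564837 to 142571614) encodes Kir6.1, the pore of an ATP-sensitive potassium channel best known from mural cells. It stood at 583 and 323 CPM in the members and at 8 to 199 CPM in the other subsets, a change of 3.74 ± 0.23 (adjusted p = 8.08e-06). In mural cells of the same libraries it stood at 558 and 258 CPM, close to the members. Its partner Abcc9, named after its values were seen, stood at 107.6 and 198 CPM in members and at 142 and 216 CPM in mural cells. Its levels in the other subsets are not given here, and a likeness of members to mural cells was not tested. Other genes often used for mural cells were uneven in members. Mcam gave 44 and 86 UMIs in 40 and 75 members, and Notch3 454 and 1116 UMIs in 278 and 615. Pdgfrb gave 1983 and 4204 UMIs in 740 and 1352 members.

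Since Kcnj8 and Des are mural genes too, the mural marker list was summed. Higd1b, Myh11, Rgs5 and Cspg4 together gave 535 and 987 CPM in the members, 663 and 869 CPM in the Ltbp2-Comp cells, 747 and 1105 CPM in the Cxcl5-Csf3-Il11 cells, and 10363 and 12495 CPM in mural cells. The sum in members was thus not above that of 3 other subsets in library 1. Almost all of it was Rgs5. Higd1b and Myh11, which the rule limits, stood at 1.37 and 2.55 CPM and at 1.52 and 3.13 CPM. With every cell that held a mural marker UMI removed, which left 682 and 954 members, Kcnj8 was called higher at a log2 of 3.96 and Des at 3.92, and 994 genes were called higher and 750 lower.

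**Figure D3:**
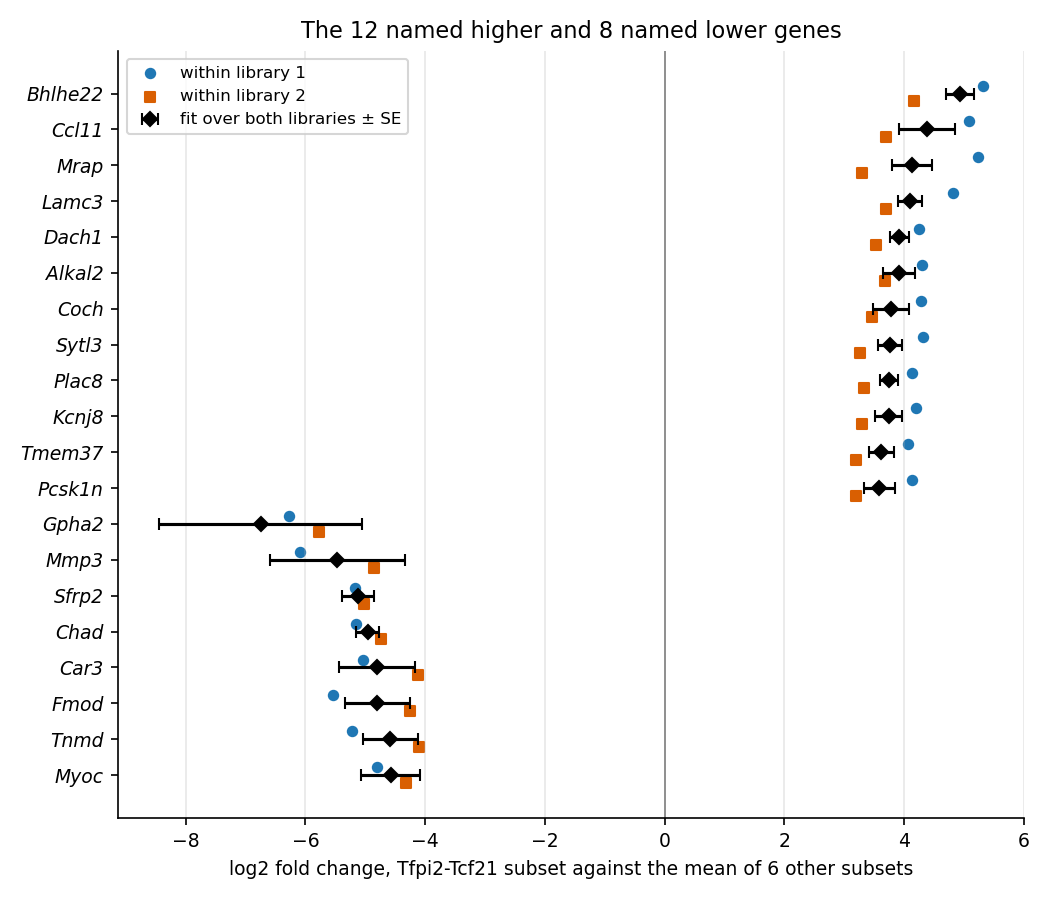
Log2 fold change of the 12 named higher and 8 named lower genes in the Tfpi2-Tcf21 cells against the mean of 6 other subsets. Diamonds with bars are the fit over both libraries ± SE, and points are the values within each library, which have the same sign in both for all 20 genes.

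The rest of the 12 genes with the largest increases at 50 CPM or more had changes of 3.59 to 4.14. They were Mrap, the melanocortin receptor accessory protein; Dach1, a transcriptional regulator; Sytl3, a synaptotagmin-like protein that binds Rab27; Plac8; Tmem37; and Pcsk1n, which encodes the prohormone convertase inhibitor proSAAS. Tmem37 stood at 468 and 283 CPM and Plac8 at 319 and 219 CPM. Each of these 6 was higher in the members than in every other subset of the same library.

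The 8 genes named for the largest decreases had log2 fold changes of -4.58 to -6.74. Sfrp2, a secreted Wnt modulator, stood at 15.7 and 20.2 CPM in the members and at 74 to 2504 CPM in the other subsets (log2 fold change -5.12 ± 0.27, adjusted p = 9.02e-07). Chad, the cartilage proteoglycan chondroadherin, stood at 12.5 and 12.5 CPM against 85 to 1325 CPM (-4.96 ± 0.19). Fmod, the collagen-binding fibromodulin, stood at 22.5 and 60.7 CPM against 196 to 4189 CPM (-4.80 ± 0.54). The members lay below every other subset in both libraries for these 3 genes.

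Tnmd, the tendon glycoprotein tenomodulin, stood at 13.7 and 27.8 CPM (-4.58 ± 0.46), and Myoc, the secreted protein myocilin, at 21.6 and 29.6 CPM (-4.58 ± 0.50). Car3, a carbonic anhydrase, stood at 1.22 and 1.40 CPM (-4.81 ± 0.63). Mmp3, the protease stromelysin-1, had 4.41 and 11.9 CPM, and the other subsets spread from 56 to 2005 CPM, so its change of -5.47 carries an SE of 1.13. Gpha2, a glycoprotein hormone subunit, was at 0.304 and 0.659 CPM in members and 8.03 to 605 CPM elsewhere. Its level in keratin epithelial cells was 1228 and 2776 CPM, and the part of such RNA in the fibroblast values of Gpha2 was not tested.

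A stricter comparison asked which genes were called higher than in each of the other 6 subsets, and 76 of 12305 genes met it (0.618%). All 76 were highest in the members in both libraries, and 73 did not overlap with any other subset. Because the genes were chosen on these same libraries, both counts largely follow from the choice and add no support. Of the 76, 24 had at least 50 CPM in both libraries. Bhlhe22 and Coch were among them, with their smallest changes of 2.18 and 1.80 against the Cxcl5-Csf3-Il11 cells. Most of the others were low. Slc17a8, the vesicular glutamate transporter VGLUT3, stood at 18.9 and 22.6 CPM and gave a UMI in 9.30% and 11.96% of members, against at most 7.05 CPM elsewhere. Hrk, which encodes a pro-apoptotic BH3-only protein, stood at 12.2 and 12.8 CPM.

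Nr1h4, the bile acid receptor FXR, stood at 7.76 and 7.08 CPM, and Ppfia2, a scaffold protein of the liprin family, at 11.3 and 16.1 CPM. Scgb1a1, a secretoglobin of airway club cells, stood at 18.7 and 8.07 CPM and came from 36 and 43 cells. Sst, the hormone somatostatin, met the rule with 102 UMIs in library 1, 100 of them in 1 cell, and 4 in library 2, all in 1 cell, and its call was lost with DESeq2 and with the no-subset cells in the reference (adjusted p = 0.399 and 0.167). Within library 2 its level in the members was 0.329 CPM. The count of 76 fell to 10 without the library block, to 14 with mural-marker cells removed and to 30 with the fibroblast-gated cells of no subset as 1 more group.

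Interferon-induced genes formed the list with the most uniform difference. Interferons bind cell-surface receptors, and the transcription factor complexes so activated switch on genes of antiviral defence through an interferon-stimulated response element in their promoters. All 13 tested genes of the list were called higher (9.14% of all genes) when set against the average over the other subsets, with a median log2 fold change of 2.38 and a range of 1.15 (Ifit2) to 3.02 (Ifit3). They included Ifit1, Ifit2, Ifit3, Ifi44, Isg15, Oas1a, Oasl2, Rsad2, Irf7, Usp18 and Bst2. Ifit3, an RNA-binding antiviral protein, stood at 1208 and 1322 CPM (3.02 ± 0.32, adjusted p = 0.000304). Isg15, a ubiquitin-like modifier, stood at 2846 and 1864 CPM (2.93 ± 0.25), and Rsad2, the antiviral enzyme viperin, at 149 and 250 CPM (2.88 ± 0.29).

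The promoter sequences of these 3 genes and of Cxcl10 are shown because the genes were higher together and the response element can be read in some of them. Each is the 200 bases before the annotated start, from RefSeq on GRCm38.p6, 5′ to 3′ on the gene's strand, and capitals mark GAAANNGAAA or its reverse complement. The windows are chr19:34583329-34583528 (+) for Ifit3, chr4:156200819-156201018 (-) for Isg15, chr12:26456453-26456652 (-) for Rsad2 and chr5:92348890-92349089 (-) for Cxcl10.
Ifit3: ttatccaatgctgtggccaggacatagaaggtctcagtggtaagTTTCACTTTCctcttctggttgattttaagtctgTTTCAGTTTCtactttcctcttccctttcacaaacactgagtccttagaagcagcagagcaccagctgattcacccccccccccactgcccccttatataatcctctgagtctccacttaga
Isg15: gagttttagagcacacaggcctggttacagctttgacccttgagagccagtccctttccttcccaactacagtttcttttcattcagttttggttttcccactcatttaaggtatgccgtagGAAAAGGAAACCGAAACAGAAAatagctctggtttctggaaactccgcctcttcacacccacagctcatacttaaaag
Rsad2: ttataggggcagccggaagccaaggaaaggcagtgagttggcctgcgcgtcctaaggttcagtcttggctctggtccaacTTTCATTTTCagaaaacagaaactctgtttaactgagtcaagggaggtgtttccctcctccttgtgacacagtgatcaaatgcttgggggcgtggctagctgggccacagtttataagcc
Cxcl10: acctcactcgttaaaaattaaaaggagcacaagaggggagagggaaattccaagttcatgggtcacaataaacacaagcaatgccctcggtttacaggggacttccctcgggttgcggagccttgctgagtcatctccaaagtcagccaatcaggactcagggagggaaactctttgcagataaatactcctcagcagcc

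Ifit3 holds 2 matches, Isg15 holds 3 that overlap one another, Rsad2 holds 1 and the Cxcl10 window holds 0. Of the 10 list genes found in the RefSeq promoter table, 6 had a match in this window (Bst2, Ifit1, Ifit3, Isg15, Oas1a and Rsad2), which is 60%. Among all 27025 genes of that table, 2.65% had one, with both strands searched. A match describes the letters only and does not show that a factor binds there.

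The interferon genes were spread over most members and did not come from a few cells. At 3000 UMIs per cell the median member held 18 and 17 UMIs of the list, and 70.3% and 69.2% of members held at least 10. The medians were 9.5 and 8 UMIs in the Crabp2-Ephb1 cells, 10 and 7 in the Cxcl5-Csf3-Il11 cells, and 0 to 2 in the others. Only 2.22% and 2.88% of members held 0 UMIs of the list. In RPE cells Isg15 gave a UMI in 7.09% and 8.46% of cells, against 91.5% and 90.4% of the shallower members. Ifit3 gave a UMI in 48.3% and 47.7% of RPE cells and in 77.3% and 80.6% of members, and Isg15 in 40.6% and 40.1% of melanocytes. The summed list stood at 346 and 349 CPM in RPE cells, 1235 and 1215 CPM in melanocytes, and 7006 and 6522 CPM in members. Other classes lay closer to the members, with 3440 and 2886 CPM in endothelial cells and 2732 and 2270 CPM in macrophages. The sum was 4752 and 3883 CPM in the Crabp2-Ephb1 cells and 3813 and 3393 CPM in the Cxcl5-Csf3-Il11 cells.

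Against the nearest subsets the difference was smaller. Against the Cxcl5-Csf3-Il11 cells the list's median log2 fold change was 0.87 and that of all genes 0.02. Only 1 of the 13 genes was called higher there and 0 lower (1.19% and 2.66% of all genes). Against the Crabp2-Ephb1 cells the list's median was 0.97. There 3 of the 13 genes were called higher, Ifi44 and Irf7 among them, and 0 lower (3.22% and 3% of all genes). Ifit1 stood at 1196 and 1630 CPM in the members and at 1363 and 1347 CPM in the Crabp2-Ephb1 cells, so for this gene the order of these subsets turned between the libraries.

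**Figure D4:**
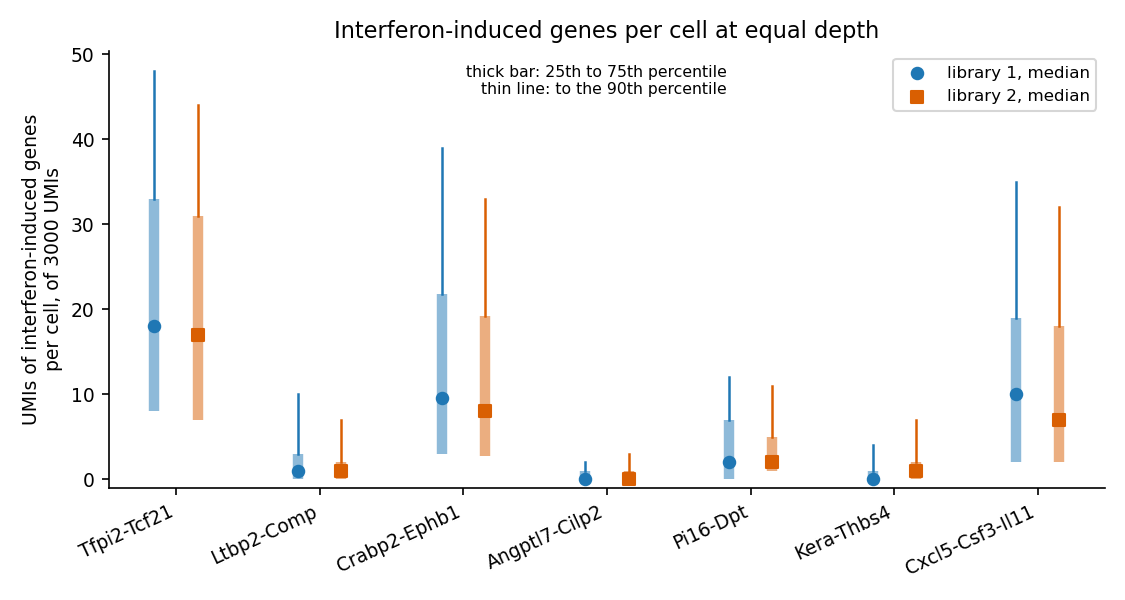
UMIs of the 13 interferon-induced genes per cell with every cell thinned to 3000 UMIs, by subset and library, as medians with the 25th to 75th percentile (thick) and up to the 90th (thin). The medians of the Tfpi2-Tcf21 cells, 18 and 17, are the highest, and those of the Crabp2-Ephb1 and Cxcl5-Csf3-Il11 cells come next.

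Chemokines and cytokines moved the same way in most cases. Of 23 tested genes 14 were called higher and 3 lower (9.14% and 6.4% of all genes), with a median log2 fold change of 1.56. The higher ones were Cxcl1, Cxcl2, Cxcl9, Cxcl10, Cxcl12, Ccl2, Ccl7, Ccl8, Ccl11, Il6, Il33, Lif, Kitl and Tslp. Ccl8 came from few members, 27 and 19, with 112 of its 250 and 33 of its 106 UMIs in 1 cell. Cxcl10, an interferon-induced attractant of T cells, stood at 1305 and 1756 CPM in the members and at 2.61 to 1067 CPM elsewhere (3.45 ± 0.34, adjusted p = 0.000232), without overlap between the members and the others. Cxcl14, a chemokine, was lower at 2.13 and 5.52 CPM against 7.21 to 199.8 CPM (-3.50 ± 0.66), and the chemokine-binding receptors Ackr3 and Ackr4 were lower too. Against the Cxcl5-Csf3-Il11 cells only Tslp was called higher and 3 genes lower (Cxcl14, Csf1 and Ackr3).

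Matrix genes differed by family. Small leucine-rich proteoglycans, which bind collagen fibrils and set their spacing, had 10 of 11 tested genes called lower and 0 higher (6.4% and 9.14% of all genes), with a median of -1.997. Besides Fmod and Chad, Omd (osteomodulin) stood at 8.83 and 16.1 CPM against 29 to 360 CPM (-3.22 ± 0.18). Dcn and Lum belong to this family but were used by the rule and are not counted.

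Of the fibrillar and associated collagens 10 of 17 were called lower and 1 higher (median -1.20). Col12a1, which sits on the surface of collagen fibrils, stood at 43.4 and 121.2 CPM against 205 to 5036 CPM (-3.65 ± 0.20). Col6a3, a chain of the microfibrillar type VI collagen, stood at 15.1 and 35.0 CPM (-3.30 ± 0.16). The exception was Col23a1, a transmembrane collagen, at 146 and 225 CPM in the members and 4.19 to 153 CPM elsewhere (3.05 ± 0.12, adjusted p = 1.65e-09). Cells of all subsets were admitted on type I and III collagen, Dcn and Lum, and the part of that gate in the matrix values was not tested.

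Elastic fibre and crosslinking genes had 11 of 21 called lower and 1 higher, which was Efemp1. Mfap4, a microfibril-associated protein, stood at 141 and 114 CPM against 162 to 763 CPM (-1.49 ± 0.14), and Emilin1, an elastin interface protein, at 26.0 and 44.0 CPM (-1.41 ± 0.17). Basement membrane genes were divided, with 6 of 23 higher (Col4a3, Col4a5, Col4a6, Lama2, Lamb1 and Lamc3) and 5 lower. The strongest decrease among the latter was Smoc2, a calcium-binding matrix protein, at 1.98 and 4.20 CPM (-4.02 ± 0.36).

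Matrix proteases and their inhibitors had 9 of 24 called lower and 4 higher. All 4 higher genes were ADAMTS proteases, which cleave proteoglycans (Adamts1, Adamts4, Adamts9 and Adamts15). Adamts4 stood at 500.2 and 910 CPM in the members and 15 to 502 CPM in the others (3.03 ± 0.19, adjusted p = 6.0e-06), and the member value of library 1 lay just below that of the Cxcl5-Csf3-Il11 cells of library 2. Mmp23 was lower at 3.35 and 5.76 CPM (-3.27 ± 0.20).

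**Figure D5:**
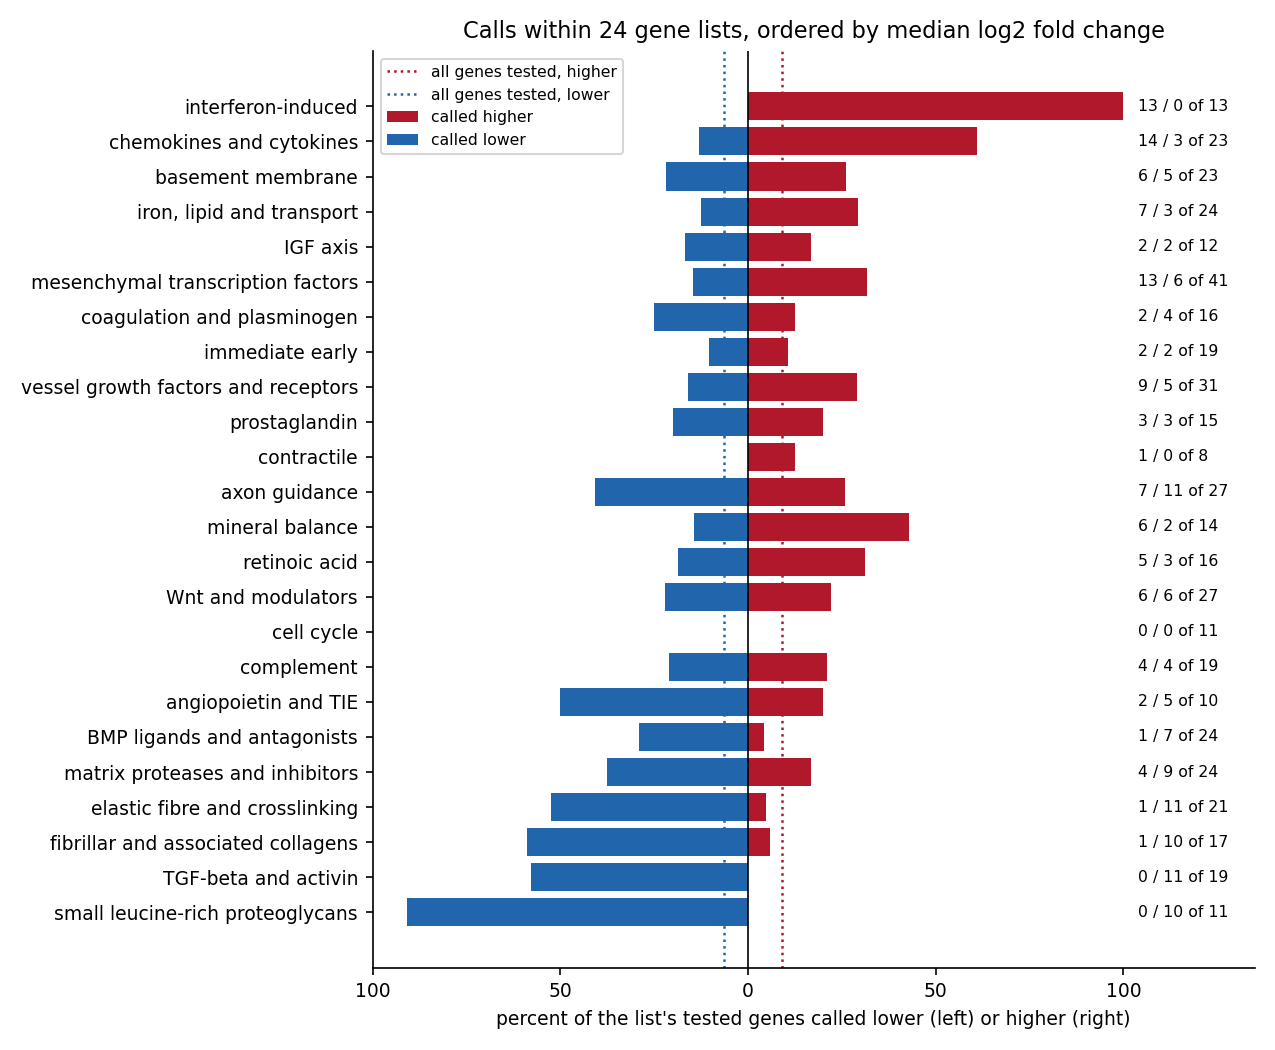
Percent of the tested genes of 24 gene lists called higher (right) or lower (left) in the Tfpi2-Tcf21 cells against the mean of the other subsets, with counts at the right edge. Dotted lines mark the shares over all genes tested, 9.14% higher and 6.4% lower, and the interferon-induced list (13 of 13 higher) and the small leucine-rich proteoglycans (10 of 11 lower) lie at opposite ends.

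The TGF-beta and activin list, which holds ligands, receptors and genes commonly induced by them, had 11 of 19 called lower and 0 higher (median -1.29). The 11 were Tgfb2, Tgfb3, Inhba, Ltbp1, Ccn1, Ccn2, Ccn3, Ccn5, Tnc, Acta2 and Tagln. Ccn5, a matricellular protein, stood at 1.98 and 3.95 CPM against 18 to 171 CPM (-4.45 ± 0.22, adjusted p = 1.51e-08). Ccn3, of the same family, stood at 3.65 and 12.7 CPM (-3.27 ± 0.27), and Tnc, the matrix protein tenascin C, at 3.96 and 10.2 CPM (-3.11 ± 0.26).

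BMP ligands and antagonists had 7 of 24 lower, among them Bmp3, Bmp6, Chrd, Chrdl1, Nbl1 and Sostdc1, and 1 higher, the receptor gene Bmpr1b. Chrdl1, a secreted BMP antagonist, stood at 1.37 and 4.44 CPM (-3.33 ± 0.23). In the Wnt list 6 of 27 were higher and 6 lower. Sfrp4, a secreted Wnt modulator, stood at 2.59 and 6.50 CPM (-3.32 ± 0.39), and Ndp, the Frizzled-4 ligand norrin, at 4.41 and 3.05 CPM (3.10 ± 0.49), which rests on 29 and 37 UMIs.

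The insulin-like growth factor (IGF) list had 2 of 12 genes higher and 2 lower. Igfbp6, an IGF-binding protein, stood at 101.5 and 79.5 CPM in the members and 383 to 4825 CPM in the others (-4.12 ± 0.21, adjusted p = 3.5e-07). Igfbp2 stood at 61.2 and 70.3 CPM (-3.54 ± 0.34). Pappa2, a protease that cleaves IGF-binding proteins, was higher at 165 and 251 CPM (2.77 ± 0.17), and Pappa was called higher as well.

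The angiopoietin and TIE genes steer vessel maturation, with ANGPT1 as the activating ligand of the endothelial receptor TEK, ANGPT2 as a context-dependent antagonist and PTPRB as a phosphatase that silences TEK. Of 10 tested genes 2 were called higher and 5 lower. Angpt1 stood at 290 and 459 CPM in the members, below the 370 and 650 CPM of the Crabp2-Ephb1 cells and above the other 5 subsets of the same library. Its change of 0.96 ± 0.10 (adjusted p = 3.17e-06) missed the 2-fold limit in the main setting and passed it in 7 of the alternatives. Svep1, a large adhesion protein of the matrix, stood at 20.8 and 33.5 CPM against 56 to 320 CPM (-2.30 ± 0.14, adjusted p = 2.97e-08).

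Tie1, an orphan partner of TEK, stood at 16.7 and 21.6 CPM against at most 10.2 CPM elsewhere (3.63 ± 0.25), and endothelial cells had 399 and 348 CPM. Angpt2 stood at 10.8 and 10.9 CPM (2.57 ± 0.31), with 59.9 and 52.4 CPM in mural cells. Cdh5, Pecam1, Cldn5 and Egfl7 summed to 7.61 and 10.9 CPM in the members and 3.36 to 23.5 CPM in the other subsets, against 6259 and 6215 CPM in endothelial cells. Since the rule limits Cdh5 in every subset, this sum is held low by the gate. The part of endothelial RNA in the Tie1 values was not tested. Tek was near 0 at 1.98 and 1.07 CPM and was not called. Angptl1 (9.28 and 11.4 CPM), Angptl2 (10.8 and 18.6 CPM), Ptprb (0.609 and 1.81 CPM) and Angpt4 (0.152 and 0.741 CPM) were lower, and Angptl4 at 69.4 and 79.8 CPM was not called.

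Of 31 tested vessel growth factors and receptors 9 were called higher and 5 lower. The higher ones were Pgf, Flt4, Nrp1, Fgf1, Hgf, Edn3, Ednra, Ednrb and Efnb2. Hgf, the hepatocyte growth factor, stood at 67.4 and 94.4 CPM in the members and 0.838 to 64.3 CPM elsewhere (2.77 ± 0.17, adjusted p = 7.46e-08), without overlap. The lower ones were Pdgfc, Pdgfd, Fgf10, Fgf18 and Egfl6, with Pdgfc, a platelet-derived growth factor, at 0.761 and 1.48 CPM (-3.37 ± 0.27). Egfl6 had 0 UMIs in library 1 and 1 in library 2 over all members. Against the Cxcl5-Csf3-Il11 cells 0 of the 31 genes were called higher and 6 lower (1.19% and 2.66% of all genes). Against the Crabp2-Ephb1 cells 4 were called higher (Hgf, Ednra, Ednrb and Efnb2) and 4 lower (3.22% and 3% of all genes).

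Among 16 tested coagulation and plasminogen genes, the pathway family to which TFPI2 is related, 2 were higher and 4 lower (9.14% and 6.4% of all genes). Procr, the endothelial protein C receptor, stood at 1471 and 881 CPM and was called higher (2.67 ± 0.23), although the Cxcl5-Csf3-Il11 cells reached 1107 CPM in library 1, above the members of library 2. The other higher gene, F13a1, rests on 6 and 56 UMIs in 3 and 8 members, with up to 3 and 32 UMIs in 1 cell. Serpinf1, which encodes the angiogenesis inhibitor PEDF, was lower at 542 and 548 CPM against 1202 to 6493 CPM (-2.25 ± 0.13, adjusted p = 9.4e-08). S100a10, which binds plasminogen together with annexin A2, stood at 236 and 200.4 CPM (-2.26 ± 0.11).

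Retinoic acid is made from retinol by RDH and ALDH1A enzymes, is degraded by CYP26 enzymes and acts through RAR receptors, and the choroid is a known site of its synthesis. Of 16 tested genes 5 were called higher and 3 lower. Rdh10, the retinol dehydrogenase of the first step, stood at 476 and 593 CPM in the members and 24 to 384 CPM elsewhere (2.41 ± 0.32, adjusted p = 0.000969). Aldh1a2, which makes retinoic acid, stood at 175 and 294 CPM against 28 to 211 CPM (1.43 ± 0.13), and was highest in the members within each library. The degrading enzyme Cyp26b1 stood at 2.13 and 12.6 CPM against 14 to 238 CPM (-2.81 ± 0.33). Against the Cxcl5-Csf3-Il11 cells only Rbp4 of this list was called higher and only Cyp26b1 lower. The same held against the Crabp2-Ephb1 cells, so Rdh10 and Aldh1a2 were not called against either of these nearest subsets. Cyp26a1 could not be tested because it chose the Ltbp2-Comp cells.

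Cyp1b1, an enzyme that can also oxidise retinoids, stood at 391 and 376 CPM (1.66 ± 0.14), Rbp4, the retinol carrier, at 86.6 and 39.5 CPM (2.78 ± 0.19), and the receptor Rarb at 37.0 and 38.6 CPM (1.12 ± 0.15). The receptor Rarg was lower at 12.2 and 14.4 CPM (-1.38 ± 0.13), and Crabp1 was near 0 in the members at 0 and 0.247 CPM. Aldh1a1 (23.1 and 38.9 CPM), Aldh1a3 (9.89 and 13.2 CPM), Dhrs3 (25.9 and 15.4 CPM) and Stra6 (5.78 and 11.2 CPM) were not called. Rara, Rxra and Rarres2 were not called either, and Cyp26c1 and Dhrs9 were too low to test.

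Alpl acts in mineral balance, and of 14 tested genes of that list outside the rule 6 were called higher and 2 lower. Phex, a peptidase of phosphate regulation, stood at 22.2 and 39.0 CPM (3.04 ± 0.22, adjusted p = 1.1e-07), and the Pi16-Dpt cells had nearly the same level, 22.2 and 36.9 CPM. Fgf23, a phosphate-lowering hormone, stood at 9.59 and 18.3 CPM (2.93 ± 0.35), and Sp7, the osteoblast transcription factor osterix, at 8.67 and 7.16 CPM (3.07 ± 0.37). Enpp1, Spp1 and Nt5e were also higher, and Ank and Tnfrsf11b lower. Several of these levels lie near the lower end of what was tested. Against the Cxcl5-Csf3-Il11 cells only Phex of the 14 was called higher, and 4 were lower (1.19% and 2.66% of all genes). Against the Crabp2-Ephb1 cells 2 were called higher (Spp1 and Phex) and 3 lower (3.22% and 3% of all genes).

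Of 41 tested mesenchymal transcription factors 13 were called higher and 6 lower. The higher ones were Foxc1, Foxf1, Foxf2, Tfap2a, Tfap2b, Tbx3, Tbx18, Osr1, Msc, Nr2f1, Nr2f2, Gata6 and Ets2. Foxf1, a forkhead factor of mesenchyme, stood at 12.02 and 12.43 CPM (3.61 ± 0.39). The lower ones were Meox1, Meox2, Osr2, Twist2, Scx and Mkx. Scx, the tendon factor scleraxis, stood at 1.22 and 0.988 CPM against 4.68 to 115 CPM (-4.41 ± 0.32, adjusted p = 3.65e-07), and Osr2, an odd-skipped factor, at 0.152 and 0.329 CPM (-5.28 ± 0.55).

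The axon guidance list had 7 of 27 higher and 11 lower. The higher genes included the neurotrophins Bdnf and Ntf3, which keep neurons alive. Bdnf stood at 142 and 163 CPM against 1.64 to 104.7 CPM (3.03 ± 0.13, adjusted p = 4.81e-09) and Ntf3 at 11.87 and 13.01 CPM (3.53 ± 0.36). Sema3a, a repellent semaphorin, was lower at 1.67 and 1.32 CPM (-3.30 ± 0.25).

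The remaining lists were mixed. Complement had 4 of 19 higher, among them C4b, Masp1 and Vtn, and 4 lower (C3, Cfb, Cd55 and Clu), with Vtn, the adhesion protein vitronectin, at 49.3 and 35.3 CPM (3.04 ± 0.41) and Clu, the chaperone clusterin, at 176 and 317 CPM (-2.15 ± 0.31). Prostaglandin genes had 3 of 15 in each direction. Ptgis, the prostacyclin synthase, was lower at 64.2 and 84.8 CPM (-2.51 ± 0.15), and the receptor Ptger4 higher at 42.3 and 83.1 CPM (2.23 ± 0.14). Iron, lipid and transport genes had 7 of 24 higher, with the cystine transporter Slc7a11 at 76.996 and 81.161 CPM (2.38 ± 0.18), and 3 lower.

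Immediate early genes, which tissue digestion can raise, had 2 of 19 higher (Junb and Nr4a1) and 2 lower (Fosb and Myc). These counts are near the shares over all genes, 9.14% and 6.4%. Without cells holding a mural marker UMI, Nr4a1 fell under the 2-fold limit at a log2 of 0.87. Junb stood at 3745 and 2907 CPM against 553 to 2056 CPM (1.55 ± 0.11). Cell cycle genes had 0 of 11 called in either direction by edgeR and 0 by DESeq2, with 2 at an unadjusted edgeR p under 0.05. Of 8 contractile genes only Des, an intermediate filament of muscle and pericytes, was called higher, at 129.9 and 127 CPM against 1.64 to 70.5 CPM (3.58 ± 0.23), with 384 and 322 CPM in mural cells.

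Set directly against the Cxcl5-Csf3-Il11 cells, the subset most like them, the members had 146 of 12305 genes higher (1.19%) and 327 lower (2.66%). Small leucine-rich proteoglycans were lower there too, with 7 of 11 (Fmod, Prelp, Omd, Ogn, Aspn, Podn and Chad), as were 9 of 19 TGF-beta and activin genes. Among the transcription factors Foxf1, Tbx18, Osr1 and Gata6 were higher and Osr2, Scx and Mkx lower. Lamc3 was called with 1.71 ± 0.28 (adjusted p = 0.0045) and Rbp4 with 1.68 ± 0.27, while Ccl11, at 1.09 ± 0.71 (adjusted p = 0.424), was not. Of members, 35.3% and 33.0% held at least 1 UMI of Cxcl5, Csf3 or Il11, so the boundary between these subsets runs through cells that carry both marker sets.

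Against the Crabp2-Ephb1 cells 396 genes were higher (3.22%) and 369 lower (3%). Of 23 basement membrane genes 5 were called higher (Col4a5, Col4a6, Col18a1, Lamb1 and Lamc3), 1 lower (Smoc2) and the rest were not called. The neurotrophin genes Ntf3 and Bdnf were higher, and Kcnj8 was called with 2.11 ± 0.36 (adjusted p = 0.00741). Cxcl1, Cxcl12, Ccl2, Il6 and Tslp of the cytokine list were higher, and 7 of 24 BMP genes lower. Crabp2, Ephb1 or Nrk gave a UMI in 27.7% and 40.8% of members.

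The members were not uniform in the markers that chose them. Cells in which Alpl had strictly the most UMIs of the 3 numbered 489 and 1107, Tfpi2-led cells 354 and 508, and Tcf21-led cells 114 and 79, with 54 and 62 ties. Tfpi2 stood at 1905 and 1590 CPM in the Tfpi2-led cells but at 126 and 108 CPM in the Alpl-led ones, and Tcf21 at 1361 and 993 CPM in its own cells against 41.2 and 40.2 CPM in the Alpl-led ones. Kcnj8, seen in 71.1% and 58.8% of all members, and the summed interferon list were found in each of these groups. Kcnj8 stood at 571 and 312 CPM in Tfpi2-led, 625 and 258 CPM in Tcf21-led and 586 and 330 CPM in Alpl-led cells. The interferon list summed to 7401 and 7907 CPM, 9475 and 7571 CPM, and 6146 and 5713 CPM in the same order.

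Tfpi2-led cells were tested against the mean of the Tcf21-led and Alpl-led cells in a fit of their own, with 2 residual degrees of freedom. Of 10636 genes 20 were called higher (0.188%) and 7 lower (0.0658%). The largest increases were in rod photoreceptor genes, led by Pdc (log2 fold change 5.92 ± 1.10). Single cells carry much of the rod signal: transcripts of a rod marker list that included Sag, Gnat1 and Pde6a numbered 257 and 661 in all members, of which 109 and 395 were in 1 Tfpi2-led cell of each library. Other genes with large increases were Pde6g and Gngt1, both of rods, and Olr1, a scavenger receptor. Olr1 rests on 16 and 14 UMIs in 6 and 3 members, with up to 6 and 7 UMIs in 1 cell.

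With every cell that held a rod UMI removed, which was an alternative chosen after seeing the data, 13 genes were called higher and 4 lower, and 6 and 3 of these were called in both fits. Higher in both were Ecrg4, Fam13c, Myoc, Prg4, Sfrp2 and Thbd, and lower in both were Dbp, Fos and Txnip. Single cells held much of Sfrp2 and Myoc too. Of 103 and 246 Sfrp2 UMIs in all members 52 and 46 were in 1 cell, and of 142 and 360 Myoc UMIs 56 and 76 were in 1 cell. Txnip, a thioredoxin-binding protein, stood at 30.3 and 45.7 CPM in Tfpi2-led, 132 and 212 CPM in Tcf21-led and 85.3 and 100.2 CPM in Alpl-led cells (-1.70 ± 0.13, adjusted p = 9.66e-07). Fos, an immediate early factor, stood at 335 and 415 CPM in Tfpi2-led cells and 878 to 1048 CPM in the others (-1.34 ± 0.09). Bcl2a1b and Irf1 were called lower only with all members in. Thbd, the thrombin receptor thrombomodulin, picked out after its values were seen, stood at 328 and 285 CPM in Tfpi2-led and 321 and 257 CPM in Alpl-led cells but at 38.1 and 67.1 CPM in Tcf21-led ones, so the Tcf21-led cells were the low ones. The calls of this split depended on the tool, since DESeq2 called 1 gene higher and 6 lower, and a fit without the library block called 2 and 0.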

How the data were processed

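Single-cell RNA libraries of 2 pooled choroid samples were prepared, per the labels' protocols, with a droplet kit that tags 3′ ends (10x Chromium). Each deposited file lists UMI counts, unnormalized, for pairs of gene and droplet barcode, made with Cell Ranger on mm10; the file headers give version 4 and the submitters' processing notes 2.1.1. Counts were used as deposited, and the files list 1959894 and 1856693 barcodes, so cells were picked here.

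The members and gene lists were chosen with earlier results of these data known. Counts were summed per library and subset (14 sums) and tested with edgeR 4.0.16 in R 4.3.3 (TMM, filterByExpr, robust quasi-likelihood test, Benjamini-Hochberg adjustment), with subset and library as terms, so a log2 fold change need not equal the ratio of the printed CPM. Each library holds every subset, so the library is the block. With this block, the p-values measure only how far differences between groups of cells vary over 2 pooled libraries. Intervals cover counting error only.

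Named genes were all genes of the rule; the 12 largest increases and 8 largest decreases with at least 50 CPM; the 8 genes with the largest smallest change against each subset; 3 called genes per list; all angiopoietin and retinoic acid genes; and 5 genes each way in the split by leading marker. Results for a few of these genes are not reported here. Scrublet, run in scanpy 1.11.5, marked 214 and 706 cells as doublets, 20 and 60 of them members; they were kept, and removed in an alternative. Other alternatives were DESeq2 1.42.0, no count filter, no block, free RNA subtraction, thinning to 3000 UMIs and other cell minimums.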

Additional observations from a re-analysis of the deposited data

How the results depend on the processing

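The counts of genes called higher and lower against the mean of the other subsets stayed within 1.5 times of the main ones in every alternative run, at 809 to 1462 and 656 to 917. The 76 genes higher than in each subset became 10 with no replicate block, 43 after thinning, 14 without cells holding a mural marker UMI, 30 with the no-subset cells in the reference and 209 with the Cxcl5-Csf3-Il11 cells left out, of which 10, 36, 12, 28 and 75 were among the 76. The other alternatives gave 58 to 87. The 27 genes of the split by leading marker became 7 with DESeq2, 65 with no filter on low counts, 2 with no replicate block and 17 without cells holding a rod UMI. The share of fibroblast-gated cells, 25.6% on average, was 19.4% with a minimum of 5 UMIs, 16.0% after thinning, 35.1% without cells holding a mural marker UMI, and 24.2% to 27.1% with 1 library left out. The cause of these shifts was not tested. Of 1587 values of 117 named genes under alternatives, 1555 kept their side of the threshold, 14 lost the call, 18 gained it and 0 reversed. A reversal was counted only where the gene was called in the main fit or in the alternative. For the 101 named genes called in the main fit, no value within 1 library had the opposite sign. The 234 values within 1 library include those of named genes not called, whose sign was not checked. The removal of mural-marker or rod-marker cells and the raw library sizes were chosen after seeing the data. With 1 library there are no residual degrees of freedom, so counts of calls could not be tested. Depth limits the low genes most, and members were the shallowest subset.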
